A study of Mus musculus with 36 samples.

Results

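The livers of 12 male mice were compared here: 6 labelled AAKO and 6 labelled CTRL, all fed freely and given no agent. Members were the arrays whose titles pair either genotype with the fed control condition, 12 of the 36 arrays in the series, each array standing for 1 replicate of its group, called a mouse below. Per the series' labels the mice were of the C57Bl/6J strain, and AAKO mice lacked ATGL, adipose triglyceride lipase, in white adipose tissue. The labels used here give neither the promoter that drove the deletion, nor the alleles of the CTRL mice, nor an age. All 12 mice belonged to experiment 2, had standard chow and water, and were killed at Zeitgeber time 16, that is, 16 h after lights on and in the dark phase. The other 24 arrays came from experiment 1: 12 from mice fasted for 24 h and 12 from fed mice gavaged at Zeitgeber time 10 with the beta 3 adrenergic agonist CL316243 at 3 mg/kg, with 6 of each genotype in both. The comparison asks what the loss of an adipocyte lipase changes in the liver of a mouse that is eating.

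ATGL, encoded by Pnpla2, takes the first fatty acid off stored triglyceride. The fatty acids that adipocytes release reach the liver, where they are burned, re-esterified or exported, and where they or their derivatives can activate PPARα, a nuclear receptor that drives genes of fatty acid oxidation. Insulin after a meal holds adipocyte lipolysis down, and it raises lipid synthesis in the liver through the SREBP transcription factors.

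Between 34080 and 36921 of the 56605 probes were well above background on each fed array (60.2% to 65.2%), with medians of 62.4% in CTRL and 63.2% in AAKO. Values below are log2 processed signal minus that of the array's 75th percentile probe, so 0 is the brightness of that percentile, and each group is given by its lowest, median and highest array. Differences are AAKO minus CTRL with the standard error of the fit, and folds are 2 to the power of that difference. Called means a limma adjusted p under 0.05 over the 24096 genes tested. Correlations between any 2 of the 12 arrays ran from 0.984 to 0.995. Of 7 hepatocyte markers, among them Alb and Ttr, all were tested, 3 were higher and 4 lower, and the median difference was -0.01. Their summed linear signal ran from 4460 to 5282 in CTRL and from 4550 to 4858 in AAKO. The 6 adipocyte markers summed to 4.06 to 5.73 in CTRL and 4.47 to 6.00 in AAKO. The labels do not say whether animals were pooled or shared litters, so the p-values measure only the spread between these samples.

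Few genes differed between fed AAKO and CTRL livers. Of 24096 genes, 19 were called (0.0789%), 10 higher (0.0415%) and 9 lower (0.0374%) in AAKO. The lowest were Cyp2b10 and Cyp2b9, xenobiotic-metabolising cytochromes P450, each lower by more than 11-fold in the processed signal and by less in other processings given below. The highest was Tuba8, an alpha tubulin, at 2.42-fold. At an unadjusted p under 0.05 there were 1637 genes (6.79%), 702 higher (2.91%) and 935 lower (3.88%), and the median difference of all genes was -0.00. In the authors' value table, with its own normalization, 27 genes were called, 18 higher and 9 lower. In bulk tissue, fewer cells of a type and less RNA per cell cannot be told apart.

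For 14 of the 19 called genes every AAKO array lay beyond every CTRL array. Over all genes that held for 167 (0.693%), 61 with AAKO above (0.253%) and 106 with AAKO below (0.44%). Both wash batches of the labels held 3 arrays of each group, and the 19 called genes had the same sign in both. The genes were called on these same arrays, so the shared sign and the lack of overlap are descriptions and not separate support. With 3 mice against 3 per batch, 1 gene (Zfp949) was called by limma within batch 1 and 0 within batch 2, beside 738 and 1989 at an unadjusted p under 0.05. When only the 12 fed arrays entered the fit, 3 genes were called: Zfp949, Kng2 and Cyp2b10. The count also moved with single mice: 7 without AAKO replicate 6, 10 without AAKO replicate 1, 8 without CTRL replicate 5, 10 without CTRL replicate 1 or 3, and 33 without CTRL replicate 4. Zfp949, Kng2, the long intergenic RNA beside Zfp949, Tuba8, Cyp2b10 and Rufy4 stayed called in all 12 fits that left out 1 fed mouse.

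**Figure D1:**
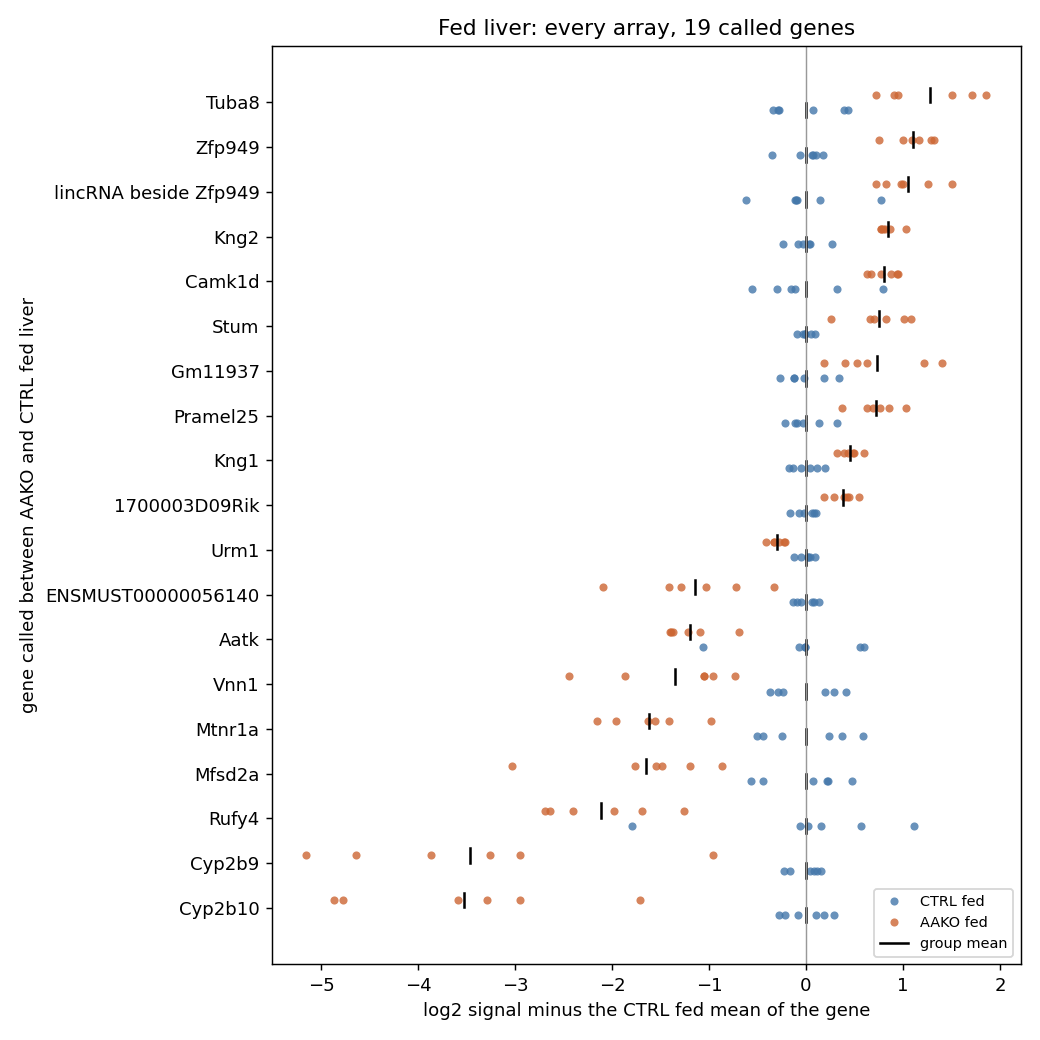
Every fed array for the 19 called genes, as log2 signal minus the CTRL fed mean of that gene (x axis); blue points are CTRL mice, orange points AAKO mice and black bars the group means, 6 mice each. The 2 Cyp2b genes lie farthest left and spread most among AAKO mice, and in 14 genes the colours do not overlap.

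Cyp2b10 and Cyp2b9 are neighbours on chromosome 7, with probes 284.1 kb apart. Both encode P450 enzymes. Cyp2b10 is a gene that the receptors CAR and PXR induce, and Cyp2b9 is known as a female-biased gene of the mouse liver. The probes that read them are printed because the genes are close relatives and a shared probe sequence could make a pair of readings out of a single one. Both genes also moved together, so their promoters follow. Positions of probes come from the files and use mm9. Capitals mark the longest run that a probe of 1 gene shares with the printed probe of the other, where it reaches 8 bases or more.

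Cyp2b10, chr7:26711522-26711581, plus strand: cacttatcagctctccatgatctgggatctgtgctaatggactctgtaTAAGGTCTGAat

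Cyp2b10, second probe, chr7:26702056-26702115, plus strand: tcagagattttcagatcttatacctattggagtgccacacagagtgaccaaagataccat

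Cyp2b9, chr7:26995607-26995666, plus strand: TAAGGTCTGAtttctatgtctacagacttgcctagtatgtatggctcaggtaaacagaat

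The first Cyp2b10 probe and the Cyp2b9 probe share 10 bases in a row and at most 19 of 60 positions in any ungapped placement. For the second Cyp2b10 probe these values were 5 and 21. Matches to the whole transcripts of other Cyp2b genes were not tested.

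The first Cyp2b10 probe read 0.74, 1.03 and 1.31 in CTRL and -3.84, -2.42 and -0.69 in AAKO. The CTRL mice sat within 0.6 log2 units of each other, and the AAKO mice were spread over more than 3, all below them. The gene fell by 3.53 ± 0.58 on the log2 scale (11.5-fold, limma adjusted p = 0.00393; -2.84 within wash batch 1 and -4.22 within batch 2). The difference was also called with normexp background correction, at -2.36, and in the value table the authors deposited, at -2.99. Its second probe was well above background on all 6 CTRL arrays and on 0 of 6 AAKO arrays, at -3.33 against -6.82 on average, which makes Cyp2b10 at least 3.48-fold lower by that probe.

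Cyp2b9 read -0.58, -0.29 and -0.20 in CTRL and -5.51, -3.91 and -1.31 in AAKO. All CTRL arrays but only 4 of the AAKO arrays cleared the background limit. The difference was -3.47 ± 0.64 (11.1-fold, limma adjusted p = 0.014; -2.72 and -4.22 within the batches). In the authors' value table it was -2.40 and called, after normexp correction -1.64 and not called (adjusted p = 0.0801), and without AAKO replicate 1 or 6 the call was lost too (largest adjusted p = 0.0735). Among AAKO mice, replicates 1 and 6 were lowest and replicate 5 highest for both genes.

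From 250 bases before to 50 after the gene start, RefSeq (GRCm38.p6) gives these promoters, with matches to AGGTCA, the half-site that many nuclear receptors bind, or to its reverse complement in capitals.

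Cyp2b10, chr7:25897408-25897707, plus strand: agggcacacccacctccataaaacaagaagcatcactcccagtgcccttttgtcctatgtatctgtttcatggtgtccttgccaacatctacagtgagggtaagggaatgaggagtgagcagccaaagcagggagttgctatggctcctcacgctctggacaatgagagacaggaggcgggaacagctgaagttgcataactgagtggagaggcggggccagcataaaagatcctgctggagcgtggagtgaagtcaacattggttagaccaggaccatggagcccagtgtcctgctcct

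Cyp2b9, chr7:26173159-26173458, plus strand: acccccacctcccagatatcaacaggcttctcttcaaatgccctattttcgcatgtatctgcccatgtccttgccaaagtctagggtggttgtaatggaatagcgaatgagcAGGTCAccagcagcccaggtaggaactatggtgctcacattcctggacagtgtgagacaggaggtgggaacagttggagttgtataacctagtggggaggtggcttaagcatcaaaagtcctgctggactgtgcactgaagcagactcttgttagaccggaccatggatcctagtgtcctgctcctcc

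In a global alignment 230 of 314 columns were identical (73.2%). The motif occurs in 1 place in the Cyp2b9 window and in 0 in that of Cyp2b10, and 16.3% of the 32851 promoters in the table hold it. Sequence outside these windows was not searched, so receptor sites farther from either gene were not covered. Of the 19 called genes, 15 had a promoter in the table.

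Cyp2b10 and Cyp2b9 belong to a list of 38 genes tied to CAR and PXR, of which 33 were tested. With both included, 26 were lower and 7 higher (median -0.12, against -0.00 for all genes), and 8 had an unadjusted p under 0.05, all lower. No member was called besides Cyp2b10 and Cyp2b9. Abcc3, an exporter of conjugated bile acids and drugs, read 4.76, 5.28 and 5.53 in CTRL and 3.26, 4.58 and 4.75 in AAKO (-0.91 ± 0.21, adjusted p = 0.0942). The groups of Abcc3 did not overlap. Por, the reductase that feeds electrons to microsomal P450 enzymes, differed by -0.35 ± 0.14 (adjusted p = 0.649), and Cyp3a11, a PXR target, by -0.48 ± 0.22 (adjusted p = 0.718). The receptor genes themselves were at -0.21 (Nr1i3, CAR) and -0.05 (Nr1i2, PXR), with neither called. Cyp2b13, Cyp2b23 and Cyp2c39 were not well above background on any fed array.

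Sex-biased P450 genes split. Of 12 female-biased genes tested, 5 were higher and 7 lower (median -0.13), 6 had an unadjusted p under 0.05, 3 in each direction, and 1 was called, Cyp2b9. Cyp2c40 (0.55 ± 0.15, adjusted p = 0.259), Cyp2c69 (0.52 ± 0.15, adjusted p = 0.292) and Abcd2 (1.67 ± 0.49, adjusted p = 0.316), a peroxisomal fatty acid transporter, were higher in AAKO without being called. Of 21 male-biased genes, 13 were higher and 8 lower (median 0.06), and 0 were called, with 4 at an unadjusted p under 0.05. Cyp4a12a, a male-specific fatty acid hydroxylase, read 5.31, 5.70 and 5.98 in CTRL and 3.75, 4.69 and 5.45 in AAKO (-0.94 ± 0.26, adjusted p = 0.249), and its close relative Cyp4a12b differed by -0.86 ± 0.25 (adjusted p = 0.301).

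The 3 smallest p-values by gene belonged to Zfp949, its neighbour on chromosome 9 and Kng2 on chromosome 16. Zfp949, a zinc finger gene, read -1.31, -0.89 and -0.78 in CTRL and -0.20, 0.17 and 0.37 in AAKO (chr9:88465683-88465742). It rose by 1.10 ± 0.10 (2.15-fold, limma adjusted p = 3.42e-08; 1.07 and 1.14 within the wash batches), with no overlap. Its 2 other probes gave 0.90 and 0.87. The long intergenic RNA that the array names for chr9:88437245-88465751, forward strand, has its probe 0.6 kb away. It read -3.85, -3.33 and -2.46 in CTRL and -2.51, -2.24 and -1.72 in AAKO (1.05 ± 0.16, adjusted p = 0.00111), and the ranges overlapped slightly. The difference of this RNA was called with normexp as well, at 0.42, and in the authors' value table, at 0.69. The location of these probes within exons or introns is not given in the files, and transcripts that overlap cannot be told apart.

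Testing each of 36548 probes on its own, a choice made after seeing the data, called 35 (0.0958%), with 2349 at an unadjusted p under 0.05 (6.43%). Of these 35, 8 lay on chromosome 9 and 5 on chromosome 16, which held 1996 and 1233 of the tested probes. The stretch from the first to the last of the 8 spans 8136.6 kb and held 109 tested probes, with its ends set by the calls. No other chromosome had more than 4. On chromosome 9 the called probes were the 3 of Zfp949, its neighbouring long intergenic RNA, and 1 probe each of Ctsh, Tbc1d2b, Zbtb38 and the long intergenic RNA named for chr9:88575075-88611650, reverse strand. The 3 Zfp949 probes lie within the span named for the neighbouring RNA, so they and that RNA are not separate loci.

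In the last 4 genes the called probe stood alone. The Ctsh probe at chr9:89950039-89950098 read -0.87, -0.05 and 0.14 in CTRL and 1.24, 1.56 and 1.71 in AAKO (1.71 ± 0.15, adjusted p = 2.86e-08), while the 3 other probes of this cathepsin gene gave -0.01, -0.09 and -0.30. The Zbtb38 probe at chr9:96585842-96585901 gave 1.84 ± 0.22 (adjusted p = 1.92e-05) beside -0.01 and -0.15 at 2 others. One probe of Tbc1d2b gave 0.88 ± 0.13 (adjusted p = 0.000625) beside 0.03. The reverse-strand RNA gave -0.89 ± 0.11 (adjusted p = 2.05e-05) beside 0.04. Between Tbc1d2b and Zbtb38 no probe was called. The Zbtb38 probe was also higher in AAKO in fasted mice (1.93) and after CL316243 (1.51), both called, whereas the Ctsh probe was higher after CL316243 (1.17, adjusted p = 9.94e-07) and at 0.07 in fasted mice (adjusted p = 0.748). Sequence differences between the mice under a probe, splicing and transcript level were not tested.

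**Figure D2:**
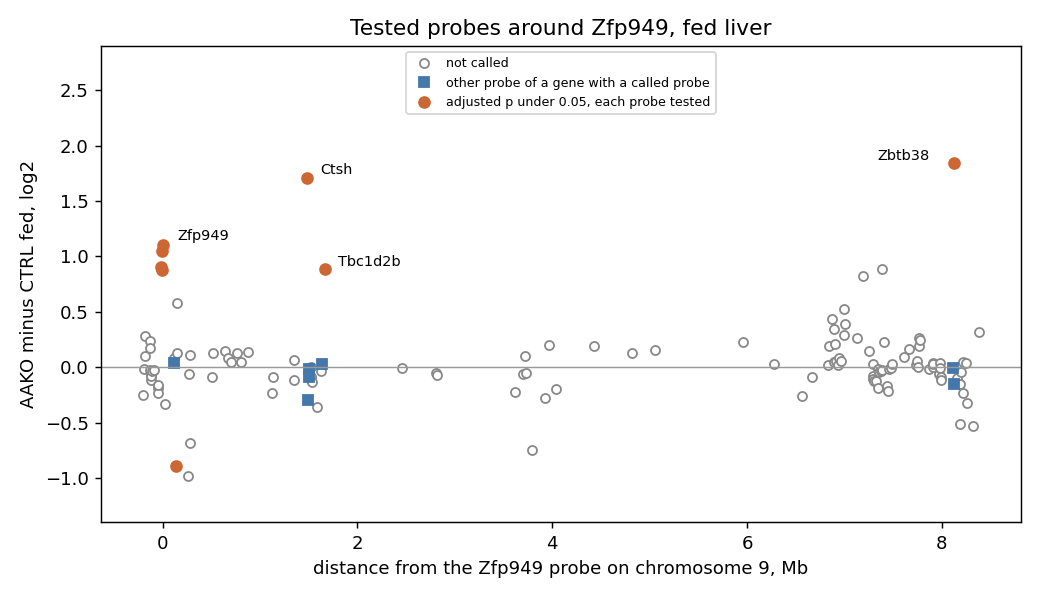
AAKO minus CTRL difference in fed liver for every tested probe (y axis, log2) against its distance from the Zfp949 probe on chromosome 9 (x axis, Mb); orange points were called with each probe tested on its own, and blue squares are other probes of the same genes. Of the 8 called probes, 7 lie toward the Zfp949 end of the stretch and that of Zbtb38 at the far end, and the blue squares stay between -0.30 and 0.04.

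On chromosome 16 the genes were Kng1 and Kng2, which encode kininogens, the liver-made precursors of bradykinin. Their probes are printed because the paralogs are alike and each gene's reading should be seen with the sequence behind it. No printed Kng1 probe shares 8 or more bases in a row with the Kng2 probe, so there are no capitals.

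Kng2, chr16:22997333-22999887, minus strand: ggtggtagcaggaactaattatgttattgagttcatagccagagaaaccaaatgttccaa

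Kng1, chr16:23077602-23079064, plus strand: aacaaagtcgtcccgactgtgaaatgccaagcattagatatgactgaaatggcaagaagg

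Kng1, chr16:23079732-23079791, plus strand: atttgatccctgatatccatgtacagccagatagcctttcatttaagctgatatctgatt

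Kng1, chr16:23081700-23081759, plus strand: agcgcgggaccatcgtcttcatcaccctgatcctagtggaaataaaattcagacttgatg

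The Kng2 probe matches the Kng1 probes at 18 to 22 of 60 positions at most. Whether a probe also binds the full transcript of the other gene was not tested.

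Kng2 read 6.56, 6.79 and 7.07 in CTRL and 7.57, 7.60 and 7.83 in AAKO. It rose by 0.84 ± 0.11 (1.79-fold, limma adjusted p = 0.000159; 0.81 and 0.88 within the batches), and no mice overlapped. The 3 Kng1 probes, in the order printed, gave 0.84, 0.81 and 0.45. The last has the highest mean signal and stood for the gene, reading 9.55, 9.72 and 9.92 in CTRL and 10.04, 10.19 and 10.32 in AAKO (0.45 ± 0.09, adjusted p = 0.0181; 0.40 and not called with slide as a factor, adjusted p = 0.0835).

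The neighbours leaned upward too. From Kng2 to Rfc4, a stretch of 123.7 kb whose ends were chosen after seeing the values, 11 probes of 5 genes were tested. All 11 were higher in AAKO, from 0.39 to 0.84 with a median of 0.47, and each had an unadjusted p under 0.05, which 6.43% of all probes had. In the test by probe 5 of them were called: Kng2, the 3 of Kng1 and 1 of Eif4a2, a translation initiation factor. That Eif4a2 probe read -1.93, -1.57 and -1.32 in CTRL and -1.29, -0.91 and -0.72 in AAKO (0.65 ± 0.14, adjusted p = 0.0491). The 2 others of Eif4a2 gave 0.46 and 0.47, the small nucleolar RNA Snora81 0.73, and the 3 of Rfc4, a clamp loader subunit for DNA replication, 0.39 to 0.40.

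Adipoq, which encodes the adipocyte hormone adiponectin, is the next gene along, and its probe was well above background on 2 CTRL and 3 AAKO arrays. It read -6.40, -5.07 and -4.52 in CTRL and -7.05, -4.74 and -4.51 in AAKO (0.01 ± 0.34, adjusted p = 0.998). Beyond it, up to BB163080 at 78.9 kb, 8 probes of 7 transcripts were all higher, with a median of 0.44, and 0 were called. This end was also set with the values seen, as the next probe, of AF457567, was at -0.06. The BF453944 probe was well above background on 0 fed arrays of either group, and the BC106179 probes on 1 and 0 CTRL arrays. In fasted mice the 8 probes had a median of -0.10, with 0 called higher and 2 lower. After CL316243 the median was 0.22, with 1 called higher and 2 lower. Outside the stretch from Kng2 to BB163080 the fed values lay on both sides of 0. The 11 probes within 300 kb before Kng2 had a median of 0.03, with Ahsg, the fetuin A gene, at 0.06 and Hrg, histidine-rich glycoprotein, at -0.05. St6gal1, a sialyltransferase 202.5 kb past Adipoq, was at -0.08.

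**Figure D3:**
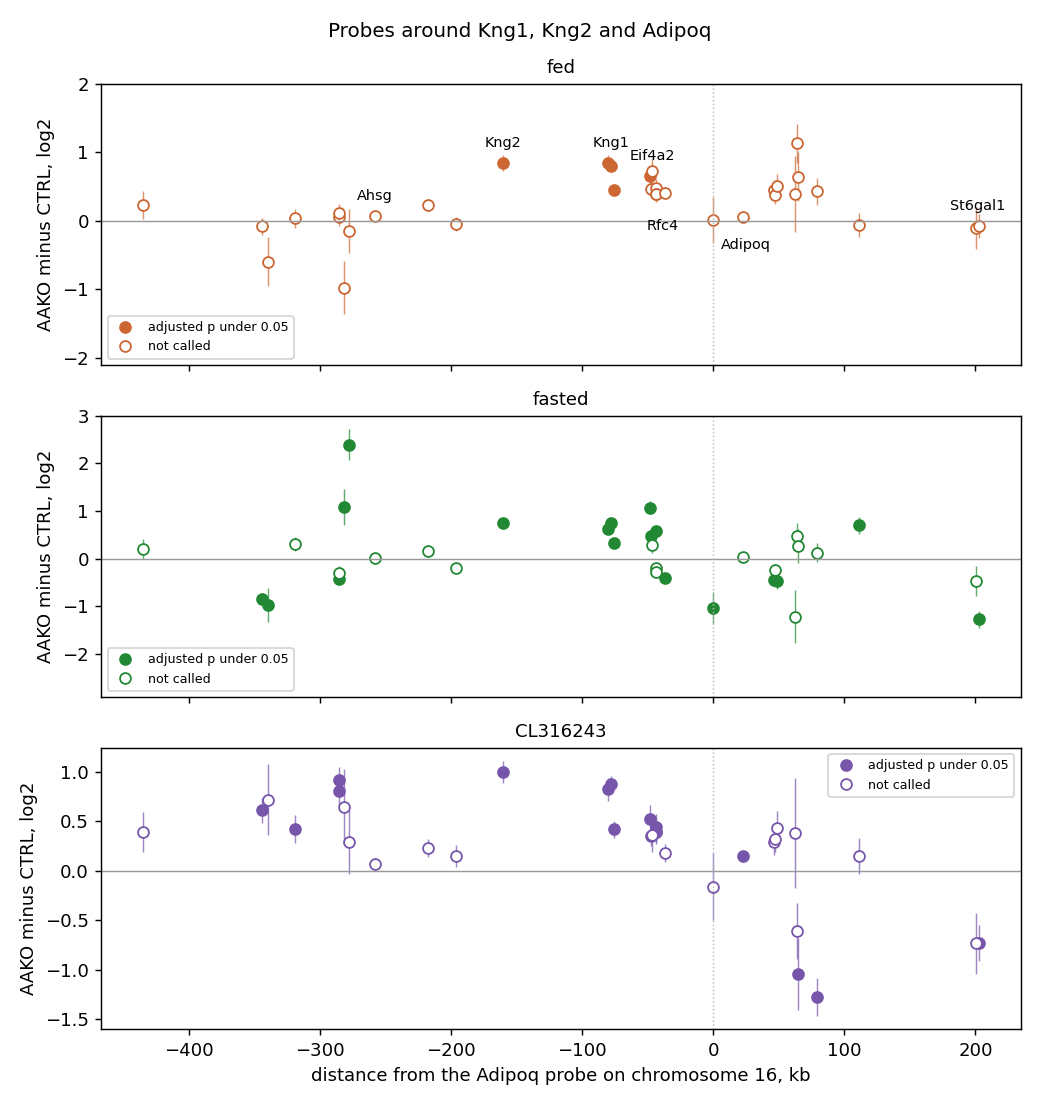
AAKO minus CTRL difference of each tested probe (y axes, log2, error bars the standard error of the fit) against its distance from the Adipoq probe on chromosome 16 (x axis, kb), in fed, fasted and CL316243 mice; filled points were called. In fed mice the points from Kng2 to Rfc4 and just past Adipoq sit above 0 and those farther out lie on both sides of it. The panels have different y ranges, and Kng1, Kng2 and Eif4a2 stay above 0 in all 3 panels.

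Pnpla2 itself, on chromosome 7, was lower in fed AAKO liver without being called. It read 4.10, 4.45 and 4.58 in CTRL and 3.50, 3.90 and 4.51 in AAKO (-0.45 ± 0.19, adjusted p = 0.655). Because the deletion is in adipose tissue, a liver value does not check the labels. The 51 probes within 300 kb had a median of -0.02, and 0 were called.

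Lipid handling held the next group. Vnn1, the pantetheinase vanin 1 and a PPARα target, read 0.52, 0.87 and 1.30 in CTRL and -1.55, -0.16 and 0.16 in AAKO. It fell by 1.35 ± 0.24 on the log2 scale (2.55-fold, limma adjusted p = 0.0109; -1.02 and -1.68 within the wash batches), with no overlap, and the call was lost without AAKO replicate 6 or CTRL replicate 5 (largest adjusted p = 0.0554). Mfsd2a, a transporter of lysophosphatidylcholine, read 3.75, 4.47 and 4.80 in CTRL and 1.29, 2.80 and 3.45 in AAKO (-1.65 ± 0.32, 3.13-fold, adjusted p = 0.0205), and the call was lost without AAKO replicate 1 or 6 or CTRL replicate 2, 3 or 5 (largest adjusted p = 0.0786). Mogat1, which makes diacylglycerol from monoacylglycerol, was below CTRL in every AAKO mouse, at -1.94, -1.83 and -1.45 against -2.68, -2.42 and -2.21, without being called (-0.64 ± 0.15, adjusted p = 0.0912).

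Of 42 genes listed as PPARα targets, 41 were tested, and 38 were lower in AAKO and 3 higher. Vnn1 was the 1 called. At an unadjusted p under 0.05 there were 17, all lower (41.5% of the list, against 3.88% of all genes lower), and the median difference was -0.25. This list was drawn up with earlier results of these data known, so its direction is a description. Averaged over the tested members in each mouse, it read 4.35, 4.59 and 4.64 in CTRL and 3.92, 4.26 and 4.55 in AAKO. These ranges overlapped, and members read in the same mice are not separate tests. Cpt1a, the entry enzyme of mitochondrial fatty acid oxidation, read 5.67, 6.03 and 6.14 against 5.25, 5.40 and 5.88 (-0.44 ± 0.11, adjusted p = 0.203). Acadm, a medium-chain acyl-CoA dehydrogenase, read 6.34, 6.47 and 6.53 against 5.91, 6.21 and 6.28 (-0.32 ± 0.09, adjusted p = 0.246), and its groups did not overlap. Cyp4a10 (-0.92 ± 0.32, adjusted p = 0.478) and Cyp4a31 (-0.99 ± 0.31, adjusted p = 0.39), omega-hydroxylases of fatty acids, and Acot2 (-0.70 ± 0.29, adjusted p = 0.649), a mitochondrial thioesterase, had larger but more variable differences.

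For several textbook PPARα genes the fed difference was neither called nor precise, with standard errors from 0.25 to 0.59. Fgf21, a liver hormone of fasting, was at -0.29 ± 0.59 (adjusted p = 0.957), with mice from -3.42 to -0.98 in CTRL and from -3.70 to 0.12 in AAKO. Cyp4a14 was at -0.04 ± 0.35 (adjusted p = 0.994) and well above background on 4 CTRL and 5 AAKO arrays, and Plin2, a lipid droplet coat protein, was at 0.02 ± 0.25 (adjusted p = 0.997). Both of these changed sign under some other settings. Pdk4, which brakes pyruvate use, leaned the other way at 0.68 ± 0.48 (adjusted p = 0.824).

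Genes of lipid droplets and lipolysis also leaned lower: of 22 tested, 16 were lower and 6 higher (median -0.18), 0 were called, and 9 had an unadjusted p under 0.05, 8 of them lower. Cidec, a droplet fusion protein, read 0.04, 0.52 and 0.91 in CTRL and -1.21, -0.79 and -0.16 in AAKO, without overlap (-1.24 ± 0.41, adjusted p = 0.423). G0s2, the inhibitor of ATGL, read 2.37, 4.57 and 4.86 against 1.70, 2.21 and 4.81 (-1.34 ± 0.63, adjusted p = 0.725), and those ranges overlapped widely. Fitm1, which helps bud droplets from the endoplasmic reticulum, was at -0.91 ± 0.23 (adjusted p = 0.188).

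On the other side of 0 was Pnpla3, a patatin-like lipase induced by SREBP-1c and carbohydrate. It read -4.69, -3.11 and -1.09 in CTRL and -2.31, -0.91 and 0.71 in AAKO (2.29 ± 0.52, adjusted p = 0.0912). Pnpla5, its neighbour on chromosome 15, read -4.02, -3.06 and -0.03 against -1.60, 0.07 and 0.81 (2.53 ± 0.57, adjusted p = 0.0886). Other probes of these genes gave smaller differences in the same direction, 0.61 for Pnpla3 and 0.83 for Pnpla5. Neither gene was called, and both had CTRL replicate 4 as the highest control.

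Synthesis of fatty acids and of sterols leaned upward. Of 20 lipogenic genes tested, 14 were higher and 6 lower (median 0.24), 0 were called, and 7 had an unadjusted p under 0.05, 6 of them higher. Averaged over these genes in each mouse, the list read 4.71, 4.99 and 5.58 in CTRL and 5.16, 5.22 and 5.64 in AAKO, with overlap. Acacb, the acetyl-CoA carboxylase whose product inhibits Cpt1a, read 3.61, 4.20 and 5.16 in CTRL and 4.85, 5.24 and 5.44 in AAKO (0.97 ± 0.22, adjusted p = 0.0942), with smaller differences at its 2 other probes (0.26 and 0.18). Acss2, which makes acetyl-CoA from acetate, was at 0.69 ± 0.18 (adjusted p = 0.21), Fasn, fatty acid synthase, at 0.39 ± 0.26 (adjusted p = 0.813), and Srebf1, which encodes SREBP-1, was at -0.47 ± 0.19 (adjusted p = 0.633).

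Of 25 genes of cholesterol synthesis and uptake, 24 were tested: 22 were higher and 2 lower, and the median of 0.41 was the highest of the 22 pathway lists. None was called, whereas 14 had an unadjusted p under 0.05, all higher (58.3%, against 2.91% of all genes). Averaged over the tested members in each mouse, the list read 4.03, 4.48 and 4.66 in CTRL and 4.48, 4.85 and 5.07 in AAKO. These ranges overlapped, and members read in the same mice are not separate tests. Dhcr7, the last reductase of the pathway, was at 0.55 ± 0.14 (adjusted p = 0.171), Fdps, farnesyl diphosphate synthase, at 0.71 ± 0.20 (adjusted p = 0.287) and Pmvk, phosphomevalonate kinase, at 0.69 ± 0.21 (adjusted p = 0.356). Srebf2, which encodes the transcription factor SREBP-2, was among the 2 below 0, at -0.07 ± 0.06 (adjusted p = 0.865).

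**Figure D4:**
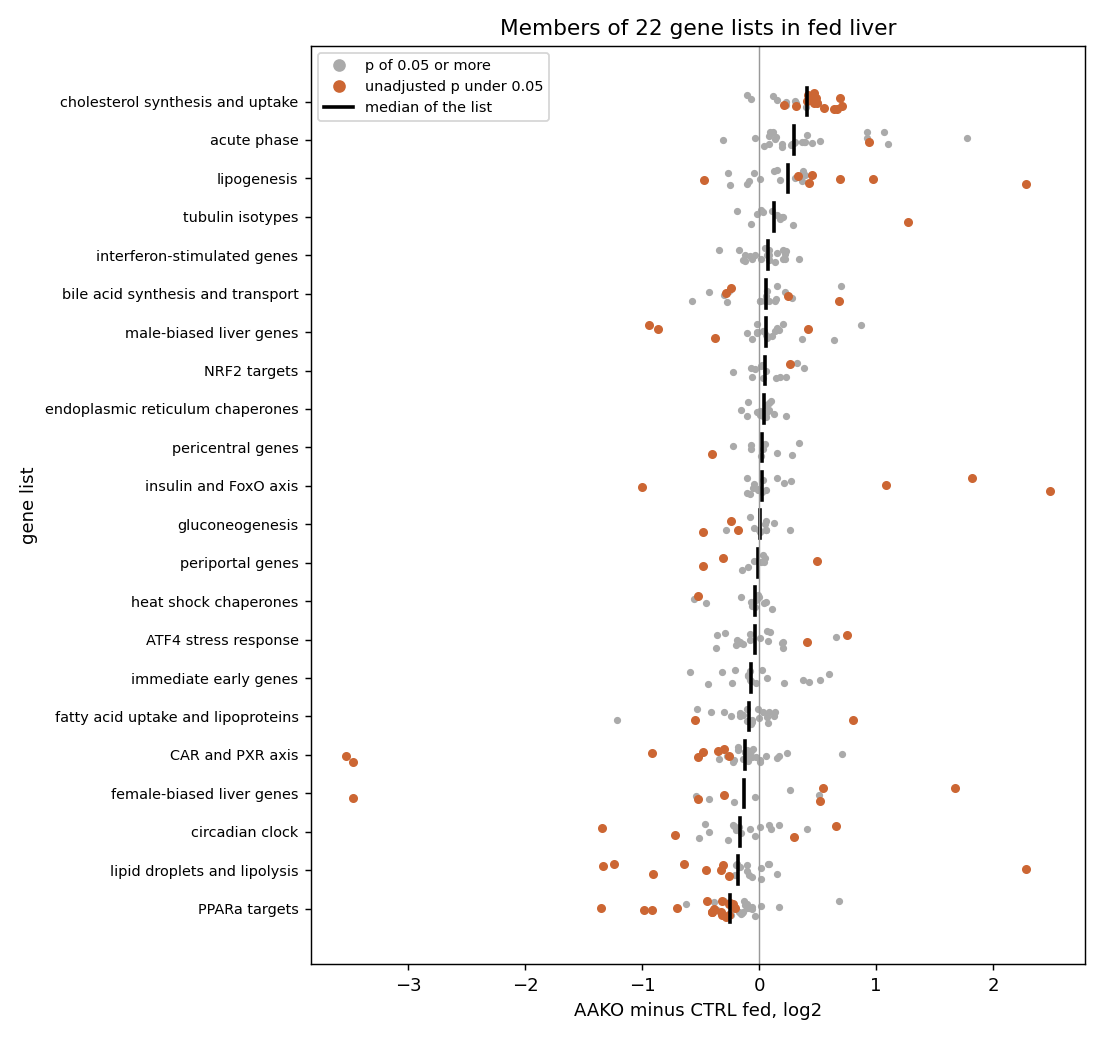
AAKO minus CTRL difference in fed liver (x axis, log2) for each tested member of 22 gene lists (y axis, ordered by median); orange points have an unadjusted p under 0.05 and black bars are the list medians. Cholesterol synthesis has the highest median, 0.41, and PPARα targets (written PPARa) the lowest, -0.25, while the 2 Cyp2b genes lie alone near -3.5.

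The 2 members of the insulin and FoxO list with the smallest p-values, Igfbp1 and Irs2, stood high in some AAKO mice without being called. Igfbp1, a secreted binding protein of insulin-like growth factors that insulin represses, read 1.39, 3.11 and 5.80 in CTRL and 4.01, 6.02 and 8.01 in AAKO (2.49 ± 0.59, 5.62-fold, adjusted p = 0.108). Irs2, an insulin receptor substrate, read 0.36, 0.87 and 1.95 against 0.80, 2.09 and 3.00 (1.09 ± 0.31, adjusted p = 0.301). Both spread widely among mice of each genotype, and the ranges overlapped. Ppp1r3g, a glycogen-targeting subunit, was at 1.82 ± 0.88 (adjusted p = 0.728), and its relative Ppp1r3c at -0.999 ± 0.42 (adjusted p = 0.676). The whole list of 17 had 9 members higher and 8 lower (median 0.02), and the gluconeogenic list of 14 had 8 higher and 6 lower (median 0.01), with 0 called in either.

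Tff3, a trefoil peptide, was the first gene past the threshold: 2.25, 2.92 and 4.77 in CTRL against 4.30, 5.46 and 6.66 in AAKO (2.43 ± 0.51, 5.41-fold, adjusted p = 0.0529; called in the test by probe, adjusted p = 0.047). Lepr, the leptin receptor, depended on the probe. At chr4:101464615-101464674 it read -3.49, -2.81 and -1.56 in CTRL and -0.97, -0.03 and 0.39 in AAKO, without overlap (2.59 ± 0.49, adjusted p = 0.017 in the test by probe), while the probe that stood for the gene gave 0.16 ± 0.19. The first of these Lepr probes was also higher in AAKO in fasted mice (3.91) and after CL316243 (3.25), both called. Which Lepr transcripts each probe reads is not given in the files.

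Among the remaining called genes, receptors and signalling proteins came first. Mtnr1a, a melatonin receptor, read -2.76, -2.25 and -1.67 in CTRL and -4.41, -3.85 and -3.23 in AAKO (-1.61 ± 0.30, 3.06-fold, limma adjusted p = 0.014). In the authors' value table the difference was -0.98 and called, after normexp correction -0.58 and not called (adjusted p = 0.143). Of its 2 other probes, 1 was well above background on 6 CTRL arrays and 1 AAKO array, at -1.35, and the other on 1 and 0. Aatk, a kinase, was at -0.36, 0.69 and 1.30 against -0.70, -0.59 and 0.01 (-1.19 ± 0.23, adjusted p = 0.0224), with CTRL replicate 6 among the AAKO values. Camk1d, a calcium/calmodulin-dependent kinase, read 1.23, 1.65 and 2.58 against 2.42, 2.61 and 2.73 (0.81 ± 0.16, adjusted p = 0.0227). CTRL replicate 4 lay within the AAKO range there, and the 3 other Camk1d probes gave 0.62 to 0.73, the first of them from a probe well above background on 2 CTRL and 3 AAKO arrays.

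Rufy4, an effector gene of autophagy, lay near the floor of the array. It was well above background on 5 CTRL and 0 AAKO arrays, at -4.84 and -6.95 on average, and the ranges overlapped. By group means of the processed signal, Rufy4 was at least 1.23-fold lower in AAKO, a bound that does not hold for other processings. The fitted difference of -2.11 ± 0.36 (adjusted p = 0.00779) shrank to -0.17 with normexp and to -0.50 in the authors' value table, neither called. ENSMUST00000056140, named in the files by its transcript only, was similar: 6 CTRL arrays but 1 AAKO array were well above background (-1.15 ± 0.23, adjusted p = 0.0232), with -0.09 under normexp and -0.27 in the authors' value table, neither called.

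Tuba8 read 0.24, 0.47 and 1.01 in CTRL and 1.30, 1.80 and 2.43 in AAKO, without overlap (1.28 ± 0.21, adjusted p = 0.00393; 1.50 and 1.06 within the batches). Of the 12 tubulin genes tested it was the 1 called and the 1 with an unadjusted p under 0.05, and the next by p, Tubb5, was at 0.20 ± 0.15 (adjusted p = 0.828). Urm1, a ubiquitin-like modifier of tRNA, differed by little but with tight groups: 2.45, 2.59 and 2.66 against 2.16, 2.26 and 2.35 (-0.30 ± 0.06, 1.23-fold, adjusted p = 0.0205), while a second probe gave -0.07. Trub2, a pseudouridine synthase 67.3 kb from Urm1, was at -0.43 ± 0.09 (adjusted p = 0.0547) with no overlap. Stum (0.75 ± 0.15, adjusted p = 0.0242), Pramel25 (0.72 ± 0.14, adjusted p = 0.0225), Gm11937 (0.73 ± 0.15, adjusted p = 0.0467) and 1700003D09Rik (0.38 ± 0.07, adjusted p = 0.0109) complete the called genes, all higher in AAKO.

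Several calls were lost under other settings or without single mice. With slide as a fixed factor, Kng1, Aatk, Pramel25, Gm11937 and ENSMUST00000056140 were not called (adjusted p from 0.0796 to 0.177), nor was ENSMUST00000056140 with the replicate number as a block (adjusted p = 0.0658). Without the wash batch in the fit, Pramel25 (adjusted p = 0.0834) and Gm11937 (adjusted p = 0.0822) lost their calls. Gm11937 also lost it with quantile normalization (adjusted p = 0.0502) and with no filter on dim probes (adjusted p = 0.0801). With the mean of a gene's probes, Urm1 was at -0.18 (adjusted p = 0.413) and Mtnr1a at -1.16 (adjusted p = 0.109). The call of Mtnr1a was lost without CTRL replicate 1 or 5, and that of 1700003D09Rik without AAKO replicate 6 or CTRL replicate 5. Kng1 lost its call without AAKO replicate 1 or 6 or CTRL replicate 1, 3 or 5, and Pramel25 without AAKO replicate 1, 5 or 6 or CTRL replicate 1, 3 or 5. For Urm1 these were AAKO replicates 1, 4 and 6 and CTRL replicates 1, 2, 3 and 5, and for Aatk AAKO replicates 2, 5 and 6 and CTRL replicates 1, 2, 3 and 5. For Gm11937 they were AAKO replicates 1, 5 and 6 and CTRL replicates 1, 3, 4 and 5, and for Stum AAKO replicates 1, 2, 5 and 6 and CTRL replicates 1, 3, 5 and 6. Camk1d lost its call without any mouse but AAKO replicates 3 and 5 and CTRL replicates 4 and 6, and ENSMUST00000056140 without any but AAKO replicates 2 and 4 and CTRL replicate 4. Without 1 mouse, the largest adjusted p among the 10 genes that lost a call this way was 0.197, for Gm11937.

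Besides Tff3 and Trub2, 9 of the 30 genes with the smallest p-values were not called (adjusted p from 0.0529 to 0.0912 over the 11). A pair of neighbours on chromosome 4 stood among them, 23.7 kb apart: Cela2a, an elastase, at 1.20 ± 0.26 (adjusted p = 0.0558), and Ctrc, chymotrypsin C, at 1.13 ± 0.26 (adjusted p = 0.0912), with a second Ctrc probe, well above background on 3 CTRL and 5 AAKO arrays, at 0.29. Both encode digestive proteases of the exocrine pancreas. Of 5 acinar markers listed, Cpa1 and Pnlip were not well above background on any fed array, and the 3 tested, Amy2a5, Cela3b and Ctrb1, were at -0.22, 0.20 and 0.01. Jazf1, a zinc finger repressor, was at 0.84 ± 0.18 (adjusted p = 0.0547) without overlap. Pdzd11 (-0.26 ± 0.06, adjusted p = 0.0595), Gpc1, a glypican (-1.11 ± 0.24, adjusted p = 0.0636), and Pccb, a subunit of propionyl-CoA carboxylase (-0.33 ± 0.08, adjusted p = 0.0912), were lower.

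Inflammatory genes leaned upward with a wide spread between mice. Of 27 acute phase genes, 25 were higher and 2 lower in AAKO (median 0.30), 0 were called, and 1 had an unadjusted p under 0.05: Il1rn, the interleukin 1 receptor antagonist (0.94 ± 0.43, adjusted p = 0.722), with a second Il1rn probe at -0.11. Mt2, a metallothionein, read 2.30, 3.71 and 9.48 in CTRL and 3.56, 5.91 and 9.92 in AAKO (1.78 ± 0.94, adjusted p = 0.766), with CTRL replicate 6 far above its group. No marker of another cell type was called. All 10 Kupffer cell markers were higher in AAKO (median 0.42, 0 with an unadjusted p under 0.05), and their summed signal ran from 64.5 to 147 in CTRL and from 103 to 178 in AAKO. Of 8 neutrophil markers 7 were higher (median 0.73), with sums from 3.89 to 8.41 and from 3.78 to 50.02, and Mpo had an unadjusted p under 0.05. Their part in the acute phase values was not tested. The 6 endothelial markers were all higher (median 0.17, 0 with an unadjusted p under 0.05), 4 of 7 stellate markers were higher (median 0.07), and 4 of 5 cholangiocyte markers were lower (median -0.10).

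In the other lists 0 genes were called. The clock list of 20 had 7 higher and 13 lower (median -0.16) and 4 with an unadjusted p under 0.05 (20%, against 6.79% of all genes), 2 in each direction. Ciart, a clock repressor, was at -1.34 ± 0.53 (adjusted p = 0.619) and Nfil3 at 0.66 ± 0.27 (adjusted p = 0.639). Fatty acid uptake and lipoprotein genes were higher in 7 and lower in 17 of 24 (median -0.09), with Fabp2 at -0.55 ± 0.19 (adjusted p = 0.494) and Fabp5 at 0.81 ± 0.38 (adjusted p = 0.728), both fatty acid binding proteins. Bile acid genes (15 higher, 7 lower, median 0.06, 18.2% with an unadjusted p under 0.05) were led by Abcb4, the phospholipid exporter, at -0.24 ± 0.10 (adjusted p = 0.643) and Slc10a2, a bile acid importer, at 0.68 ± 0.30 (adjusted p = 0.705). The ATF4 list (10 and 10, median -0.03) was led by the folate enzyme Mthfd2 at 0.75 ± 0.24 (adjusted p = 0.393) and the serine synthesis enzyme Psph at 0.41 ± 0.15 (adjusted p = 0.549). Gluconeogenesis, with 3 of 14 at an unadjusted p under 0.05 (21.4%), all lower, was led by Sds, serine dehydratase, at -0.48 ± 0.21 (adjusted p = 0.696) and the transaminase Gpt at -0.18 ± 0.08 (adjusted p = 0.7).

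Chaperones of the endoplasmic reticulum had 11 members higher and 5 lower (median 0.05), with Xbp1 at 0.23 and Calr at 0.13, and 0 with an unadjusted p under 0.05. Heat shock chaperones had 4 higher and 12 lower (median -0.03), with Hspb1 at -0.52 and Hspa1b at -0.56. Immediate early genes had 7 and 11 (median -0.07), with Junb at 0.42 and Dusp1 at -0.59, and interferon-stimulated genes 16 and 8 (median 0.08), with Oas1a at 0.34 and Ifi27 at 0.22; in both, 0 had an unadjusted p under 0.05. NRF2 targets were higher in 10 of 14 (median 0.05), with Pgd at 0.26 (-0.04 and 0.04 at other probes) and Ephx1 at -0.22. Pericentral genes, 6 higher of 10 (median 0.02), included Oat, ornithine aminotransferase, at -0.40 ± 0.12 (adjusted p = 0.356), and Rhbg, an ammonia transporter, at 0.34. Periportal genes, 5 higher of 10 (median -0.01) and 3 with an unadjusted p under 0.05 (30%), 1 of them higher, included Cdh1, E-cadherin, at 0.49 ± 0.16 (adjusted p = 0.434). None of these genes was called.

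How the called genes differed between genotypes in the other conditions was read from separate mice, which belong to experiment 1. In fasted mice 49.2% of all genes were called between genotypes (21.9% higher and 27.3% lower), and after CL316243 24.6% (13% higher and 11.6% lower). Of the 19 genes called in fed mice, 12 were called in the same direction in fasted mice and 13 after CL316243, 11 of them in both. Urm1 was called in the opposite direction in both (0.38 and 0.16). The 11 were Zfp949, its neighbouring long intergenic RNA, Kng1, Kng2, Rufy4, Vnn1, 1700003D09Rik, Mtnr1a, Aatk, Pramel25 and Stum.

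Interactions tested whether the size of the difference itself changed. Against fed mice, 33.6% of all genes were called for fasting and 10.9% for CL316243, and 7 and 8 of the 19. For 10 of the 19, neither interaction was called, which does not show that the differences were equal. Zfp949 stood at 1.10, 1.24 and 1.13 in fed, fasted and CL316243 mice, Kng2 at 0.84, 0.74 and 1.00, and Aatk at -1.19, -1.27 and -1.28. Fed mice belong to another experiment, so an effect of the experiment on 1 genotype and an effect of the condition cannot be told apart in the interactions, and only the CL316243 mice were gavaged.

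The Cyp2b genes differed less in the other conditions. Cyp2b10 differed by -0.29 ± 0.58 in fasted mice (adjusted p = 0.713) and -0.77 after CL316243 (adjusted p = 0.367), and both interactions were called (adjusted p = 0.00228 and 0.0243). Group means of Cyp2b10 were 1.02 in CTRL and -2.50 in AAKO when fed, 5.03 and 4.74 when fasted, and -0.87 and -1.59 after CL316243. Cyp2b9 ran in parallel, with -0.29 and -0.75 (interaction adjusted p = 0.00624 and 0.0471). Mfsd2a differed by -0.21 in fasted mice and -1.33 after CL316243, and the fasting interaction was called (adjusted p = 0.0126).

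Vnn1 and Mtnr1a went further the same way. Vnn1 differed by -1.35 in fed, -4.71 in fasted and -2.48 in CL316243 mice (interaction adjusted p = 1.03e-08 and 0.0274), with fed, fasted and CL316243 means of 0.89, 3.27 and 1.92 in CTRL and -0.46, -1.44 and -0.49 in AAKO. Mtnr1a differed by -1.61, -3.72 and -4.36 (interaction adjusted p = 0.000196 and 3.92e-05). Rufy4 differed by -3.85 after CL316243 (interaction adjusted p = 0.0241). Camk1d, at 0.81 in fed mice, was at -0.00 after CL316243 (interaction adjusted p = 0.0158), and ENSMUST00000056140 was at -0.09 in fasted and 0.17 in CL316243 mice (interaction adjusted p = 0.00997 and 0.00563).

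**Figure D5:**
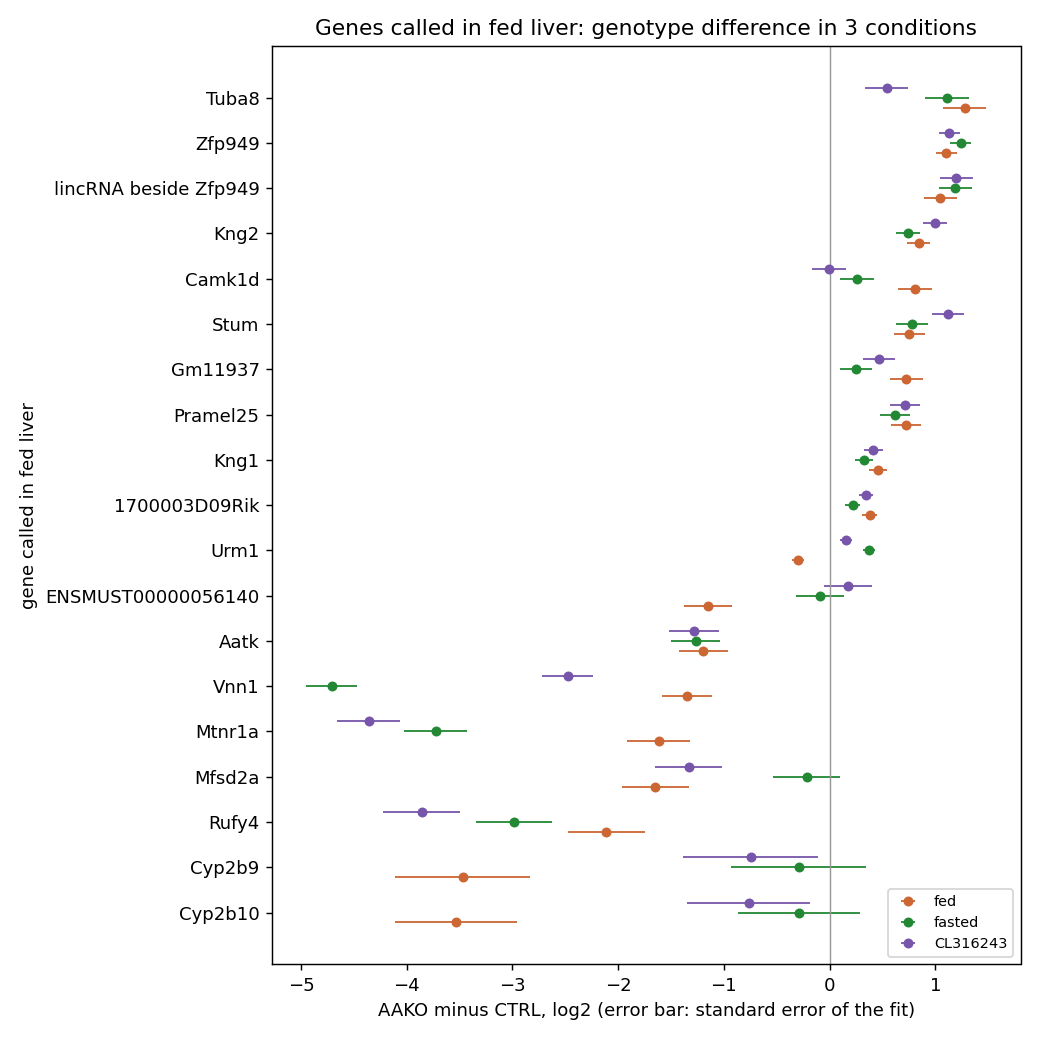
AAKO minus CTRL difference (x axis, log2, error bars the standard error of the fit) of the 19 genes called in fed liver (y axis), in fed, fasted and CL316243 mice, 6 mice per genotype and condition. The 3 points of Zfp949, Kng2 and Aatk lie close together, Cyp2b9 and Cyp2b10 are at -0.77 to -0.29 outside the fed state, and Vnn1 and Mtnr1a are lower in fasted and CL316243 mice than in fed mice.

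Some of the uncalled genes above were called in those mice, in the same or in the opposite direction. Over all genes, 21.9% were called higher and 27.3% lower in fasted mice, and 13% and 11.6% after CL316243. Igfbp1 differed by 1.87 in fasted mice (adjusted p = 0.00846) and 2.31 after CL316243 (adjusted p = 0.00378), and Tff3 by 2.01 (adjusted p = 0.00155) and 1.90 (adjusted p = 0.00638). Cela2a differed by 2.02 and 1.57 and Ctrc by 1.92 and 1.50, all called. Pnpla2 and Sds, lower in fed AAKO mice, were called higher in both conditions. Pnpla2 differed by 1.30 and 0.65 (limma adjusted p = 8.5e-07 and 0.0107 in the test by probe), and Sds by 1.98 and 1.41 (adjusted p = 3.58e-09 and 8.38e-06). Of the 41 PPARα targets, 38 were called lower and 1 higher in fasted AAKO mice (median -1.45), and 39 lower and 0 higher after CL316243 (median -1.17). The 24 cholesterol genes had 12 called higher and 4 lower in fasted mice (median 0.49), and 5 and 2 after CL316243 (median 0.07). The 20 lipogenic genes had 8 called higher and 7 lower in fasted mice (median 0.24), and 0 and 11 after CL316243 (median -0.51). On chromosome 16, of the 11 probes from Kng2 to Rfc4, 7 were called higher and 1 lower in fasted mice, and 9 higher and 0 lower after CL316243.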

How the data were processed

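Agilent Feature Extraction 10.10.1.1 made the processed signal intensity, per the file headers, by subtracting a fitted background and removing a trend within each array. The authors also deposited a value table of log2 values, with its normalization not given in the sources used here; it served as an alternative. Here, outlier spots (2701, 0.127%) were dropped, spots of a probe averaged and log2 intensity scaled to the 75th percentile of each array. Of 56605 probes, 32994 were named through RefSeq (GRCm38.p6, names only). A gene was read by its brightest probe and tested if Feature Extraction placed that probe well above background in 5 or more arrays of a group. limma 3.58.1 (R 4.3.3) fitted 6 groups over all 36 arrays with wash batch as a factor, 29 residual degrees of freedom, eBayes and Benjamini-Hochberg adjustment over 24096 genes, two-sided. The number of arrays limits the precision.

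On simulated fed groups, the fit recovered 50% of 50 genes changed 1.5-fold, 78% of those changed 2-fold, 98% at 4-fold and 100% at 8-fold, over 24096 genes, with 7 calls among 23896 unchanged genes. The simulated noise was normal and independent between genes, without batches or mice set apart. More genes were changed than the 19 called here, which loosens the adjusted threshold. Recovery in the real comparison may therefore be lower.

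Genes named are the 30 with the smallest p-value, the 2 with the smallest p-value of each of 22 lists, and 6 fixed genes (70 in all); others named were chosen after their values were seen. Some genes that the rule names are not reported here. The members and lists were chosen with earlier results of these data known. A bound ("at least") sets the bright group's mean against the higher of each dim array's lowest signal well above background and the probe's own value. Such a bound applies to the processed signal only.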

Additional observations from a re-analysis of the deposited data

Results flagged for a closer look

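Among the 140 groups formed by 70 named genes and both fed genotypes, 8 held a mouse set apart, meaning that its gap to the nearest mouse passed 0.625 of the group's range; about 1 group in 20 does so when the mice of a group do not differ. CTRL replicate 6 was set apart for Mt2, at 9.48 against 3.89 for the next mouse, and for Ephx1, at 7.29 against 7.67. AAKO replicate 6 was set apart for Kng2 (7.83 against 7.66) and for Trub2 (3.60 against 3.89). The others were AAKO replicate 5 for Pdzd11 (2.73 against 2.63), CTRL replicate 1 for Mogat1 (-1.45 against -1.80), AAKO replicate 4 for Hspa1b (4.39 against 3.64) and CTRL replicate 4 for Pnpla2 (4.10 against 4.43).

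For 9 of the 19 called genes an interaction term of the limma fit was called, 7 for fasting and 8 for CL316243. Over all genes these shares were 33.6% and 10.9%. Relative to fed mice, the difference in fasted mice was higher by 1.43 for Mfsd2a, 0.68 for Urm1, 3.24 for Cyp2b10, 3.18 for Cyp2b9 and 1.06 for ENSMUST00000056140, and lower for Vnn1 (-3.36) and Mtnr1a (-2.11). After CL316243 it was higher by 0.46 for Urm1, 2.76 for Cyp2b10, 2.72 for Cyp2b9 and 1.32 for ENSMUST00000056140, and lower for Camk1d (-0.81), Vnn1 (-1.13), Mtnr1a (-2.74) and Rufy4 (-1.74). The adjusted p-values ran from 1.03e-08 (Vnn1, fasting) to 0.0471 (Cyp2b9, CL316243), and experiment and gavage differ between these conditions.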

How the results depend on the processing

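The count of 19 called genes became 3 with fed arrays only, 29 after normexp correction, 1 and 0 within wash batches 1 and 2, and 35 with every probe on its own, which was chosen after seeing the data; leaving out 1 mouse gave 7 to 33. The fed-only and within-batch fits held fewer arrays and estimated the spread from those arrays alone. The cause of the changes in count was not tested. Of the called genes 12 were called in the same direction in fasted mice, but 19 of 29 after normexp correction, 20 of 27 in the authors' value table, 1 of 1 within wash batch 1 and 25 of 35 by probe; leaving out 1 mouse gave 5 to 24. For CL316243 the 13 became 1 of 1 within wash batch 1 and 27 of 35 by probe, and leaving out 1 mouse gave 4 to 18. No test was possible for these counts with fed arrays only, or within batch 2, where nothing was called.

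With the replicate block the count was 20, of which 18 were among the 19. Same-numbered CTRL and AAKO mice correlated in their deviations at 0.01 to 0.36, not all above 0.1, and 2 of 6 matched their own number best. They were not paired in the main fit. Such weak correlations cannot tell whether same-numbered mice shared a litter or were handled together.

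Of 475 fits of the 19 genes under other settings, 334 kept and 141 lost the call, with 0 reversed. Of 1275 such fits of the uncalled named genes, 39 gained a call and 16 reversed. Among the reversals, Dusp1 was at 0.079 and Fgf21 at 0.80 within wash batch 1. Cyp4a14 was at 0.040 in the authors' value table, 0.14 within wash batch 2 and -0.17 to 0.11 without 1 mouse (above 0 without AAKO replicate 3 or 4 or CTRL replicate 2, 5 or 6). Plin2 was at -0.012 in the authors' value table, -0.046 within wash batch 2, -0.033 with the mean of a gene's probes and -0.052 to 0.069 without 1 mouse (below 0 without AAKO replicate 1, 4 or 6 or CTRL replicate 2). List medians moved beyond the spread of mice in 3 of 550 fits. Signals near background, as for Rufy4, limit the size of a fold.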
